A study of Mus musculus with 9 samples.

Results

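The genes of the G1/S transition and of DNA replication were examined in sorted mouse blood stem and progenitor cells. They were given as a list of 41 gene symbols, and each gene was read from its brightest probe set, the one with the highest mean over all 9 arrays among the probe sets that the platform annotation ties to a single gene. Of the 41 genes 40 had such a probe set, out of 18193 genes on the arrays, and all 40 lay above the filter on low values that left 12400 genes for testing. Chaf1a, the large subunit of chromatin assembly factor 1, matched no single-gene probe set and was not analysed here.

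The cells were LSK cells, bone marrow cells without lineage markers that carry Sca1 and cKit, a gate that holds stem cells and multipotent progenitors. Donors and recipients were C57BL/6 mice. A lethal dose of 10 Gy to recipients was listed for every sample, controls included. In the dnMPL groups, donor cells had been transduced with a retroviral vector carrying dnMPL. At 8 weeks after transplantation, LSK cells were sorted into a GFP-positive fraction, which carried the transgene, and a GFP-negative fraction, which did not show it. Control LSK cells were sorted at the same time from recipients of wild type LSK cells. There were 3 arrays for each of GFP-positive, GFP-negative and control cells, and each sample pooled marrow of 2 to 5 mice. The protocol given for all samples names retroviral transduction, but neither the vector of the controls, if any, nor the promoter that drove dnMPL was given in the sources used here. Transduction and dnMPL therefore cannot be told apart against control. Whether same-numbered GFP-positive and GFP-negative samples came from the same mice was not stated either. Nothing stated that the samples of a group came from separate animals, so p-values measure the spread between these samples.

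Before S phase, the origin recognition complex, Cdc6 and Cdt1 load the MCM2-7 helicase onto origins, a step called licensing. Cyclin E with its kinase then helps to start S phase, in which Cdc45 and GINS activate the helicase, primase and polymerases copy the strands, and PCNA holds the polymerases on DNA. Many of these genes are known targets of E2F transcription factors and are transcribed together in late G1, while most adult stem cells rest outside the cycle.

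The E2F motif was looked up in the promoters of the members, because it is the sequence feature for which this group of genes is known. RefSeq promoters of build GRCm38.p6, each from 250 bases before to 50 bases after a gene's start, were at hand for 33 of the 40 members. The letters searched were TTTCCCGC, TTTCGCGC, TTTGCCGC and TTTGGCGC on both strands, with overlapping matches counted separately. They stood in 11 of 33 members (33.3%), against 626 of 27025 promoters of the table (2.32%) and 510 of 17492 protein-coding ones (2.92%). The members were Orc1, Cdc6, Cdt1, Mcm3, Mcm5, Mcm6, Mcm7, Gins3, Pola1, Pold1 and Rfc3, and 5 of them held more than 1 match. The CCAAT box, searched as a comparison on both strands, stood in 60.6% of the members and in 37.9% of all promoters. A match is a description of letters, and binding was not measured. The 250 bases before the start are shown for 4 members: Cdc6, which had 1 match and differed with an unadjusted p under 0.05; Mcm5 and Mcm6, with overlapping matches; and Ccne1, which had the smallest p of the members and held none of these letters. Capitals mark the E2F letters, and each sequence reads 5′ to 3′ along the gene.
Ccne1, chr7:38107491-38107740, minus strand: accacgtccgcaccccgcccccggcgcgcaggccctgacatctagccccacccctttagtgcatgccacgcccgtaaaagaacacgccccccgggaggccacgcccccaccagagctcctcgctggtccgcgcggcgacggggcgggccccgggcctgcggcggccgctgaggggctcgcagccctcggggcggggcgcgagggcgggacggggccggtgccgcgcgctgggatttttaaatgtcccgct
Cdc6, chr11:98907901-98908150, plus strand: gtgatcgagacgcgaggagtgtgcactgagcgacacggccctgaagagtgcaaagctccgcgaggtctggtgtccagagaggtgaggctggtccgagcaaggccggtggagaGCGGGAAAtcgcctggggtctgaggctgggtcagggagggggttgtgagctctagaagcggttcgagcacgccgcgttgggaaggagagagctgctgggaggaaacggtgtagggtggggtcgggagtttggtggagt
Mcm5, chr8:75109259-75109508, plus strand: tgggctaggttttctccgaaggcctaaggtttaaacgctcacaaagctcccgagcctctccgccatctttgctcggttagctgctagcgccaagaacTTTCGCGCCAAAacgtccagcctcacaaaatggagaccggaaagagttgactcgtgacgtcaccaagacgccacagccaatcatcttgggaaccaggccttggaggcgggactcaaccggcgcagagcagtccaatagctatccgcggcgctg
Mcm6, chr1:128359706-128359955, minus strand: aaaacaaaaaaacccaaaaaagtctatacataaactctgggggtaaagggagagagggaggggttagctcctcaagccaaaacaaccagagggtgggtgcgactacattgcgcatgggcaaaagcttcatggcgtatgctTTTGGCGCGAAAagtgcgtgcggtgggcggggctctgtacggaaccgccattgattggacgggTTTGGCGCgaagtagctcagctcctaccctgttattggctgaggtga

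The 11 members with E2F letters had a median log2 difference of 0.10 between GFP-positive and control cells, and the 22 without them 0.26. Between GFP-negative and control cells the medians were 0.075 with the letters and 0.27 without. Between GFP-positive and GFP-negative cells they were 0.16 and -0.16. In each of the 3 comparisons the ranges of both sets overlapped, and no test was run on this split.

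Levels are log2 RMA values, in which 1 unit is a doubling of signal, and their precision is limited by having 3 arrays a group. The labelled cell type was checked first. Kit, Cd34 and Flt3 were measured on every array, Kit at 7.92 to 8.73 on 8 arrays and at 6.38 on GFP-positive 2, while Ly6a, which encodes Sca1, was not analysed here. Of the markers the gate should lack, Cd3e lay below the filter, and Itgam, which encodes CD11b, stood at 3.39 to 5.85. Ptprc, the pan-leukocyte gene that encodes CD45 and that stem cells also carry, stood at 9.89 to 10.59. Arrays correlated with each other at 0.887 to 0.971 over all probe sets.

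Control 3 and GFP-positive 2 stood apart from the rest. The gap between the 3′ and 5′ Gapdh control probe sets, which widens when transcripts are incomplete, was 3.22 on GFP-positive 2 and 3.87 on control 3, against 2.47 to 2.89 on the other 7 arrays. The b-actin control probe sets did not show the same: their 3′ minus 5′ difference was -1.13 on GFP-positive 2 and -0.71 on control 3, and between -0.72 and -0.55 on the others. Of the 40 members 17 had their lowest value on control 3, against 0 to 8 on any other array. The median deviation of the members from their own means was -0.32 on control 3, and between -0.11 and 0.28 on the others. Leaving out control 3 changed the sign of the difference for 10 of 40 members between GFP-positive and control cells and for 13 between GFP-negative and control cells. Leaving out GFP-positive 2 changed it for 6 members against control and for 10 against GFP-negative cells. Of the members 15 changed sign without some single array between GFP-positive and control cells, 26 between GFP-negative and control cells and 19 between the fractions. The signs of small differences below are therefore not firm.

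**Figure D1:**
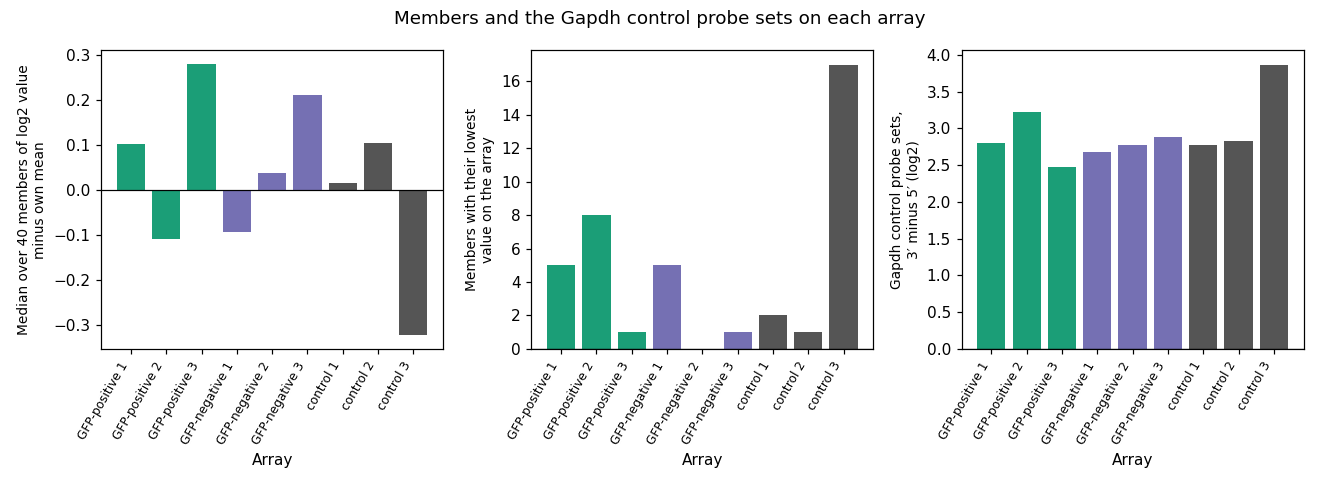
The members and the Gapdh control probe sets on each of the 9 arrays. Bars give, from left to right, the median over 40 members of the log2 value minus the gene's own mean, the number of members with their lowest value on that array, and the 3′ minus 5′ difference of the Gapdh control probe sets (log2); green is GFP-positive, purple GFP-negative and grey control, and control 3 has the lowest median (-0.32), the most lowest values (17) and the widest gap (3.87).

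Differences were fitted with limma over all 9 arrays and 12400 genes, with Benjamini-Hochberg adjustment over all of them, and every adjusted p below comes from that fit. No member passed an adjusted p of 0.05 in any comparison, and neither did any other gene: the share called was 0% in each of the 3 comparisons, with smallest adjusted p over all genes of 0.228, 0.327 and 1. Member differences therefore stand here as values with their standard errors.

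Between GFP-positive and control cells, 24 of 40 members had the higher mean in GFP-positive cells and 16 the lower, with a median log2 difference of 0.17, against -0.028 over all genes tested, of which 47.2% were higher. At an unadjusted p under 0.05 there were 4 members higher (Ccne1, Prim2, Fen1 and Cdc6) and 0 lower, where 3.3% of all genes were higher and 3.19% lower by that rule. The 3 GFP-positive values lay entirely above the 3 control values for 5 members (Ccne1, Cdc6, Mcm6, Prim2 and Fen1) and entirely below them for Pcna alone, while 4.35% and 4.26% of all genes did so. The overall direction rested on single arrays. Without control 3 the median was -0.076, with 16 members higher and 24 lower, and without GFP-positive 3 it was -0.036.

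Between GFP-negative and control cells, 29 of 40 members had the higher mean in GFP-negative cells and 11 the lower. Their median difference was 0.19, against -0.038 over all genes tested, of which 46.5% were higher. Mcm2 and Ccne1 had an unadjusted p under 0.05, both higher, where 2.83% of all genes were higher and 2.74% lower by that rule. Groups were fully separate for Ccne1 and Fen1, higher, and for Mcm3 and Pcna, lower. The share of all genes was 4.94% for higher and 6.47% for lower, so that members with separate groups were about as frequent as other genes. Without control 3 the median was 0.076, with 26 members higher and 14 lower, and 0 members had an unadjusted p under 0.05.

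Between GFP-positive and GFP-negative cells, 18 members had the higher mean in GFP-positive cells and 22 the lower, with a median of -0.11, against 0.015 over all genes tested, of which 51.8% were higher. In limma 0 members had an unadjusted p under 0.05 in either direction, against 1.28% of all genes higher and 1.27% lower. The groups were separate for Mcm4, Prim2 and Fen1, all higher in GFP-positive cells, and for no member lower, while 3.96% and 2.44% of all genes were separate by that rule. Without GFP-positive 2 the median was 0.036, with 22 members higher and 18 lower. The comparisons of the fractions with control share the control arrays, so no overlap between them is given.

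The width of the intervals shows what these arrays could resolve. The standard error of a member's difference had a median of 0.39, and the half-width of its 95% interval a median of 0.88 log2 units. The interval included 0 for 36 of 40 members between GFP-positive and control cells, for 38 between GFP-negative and control cells and for 40 between the fractions. It lay within 1 log2 unit of 0 on both sides for 11, 13 and 17 members in the same order of comparisons. For the other members a difference of 1 log2 unit in at least 1 direction lies within the interval.

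**Figure D2:**
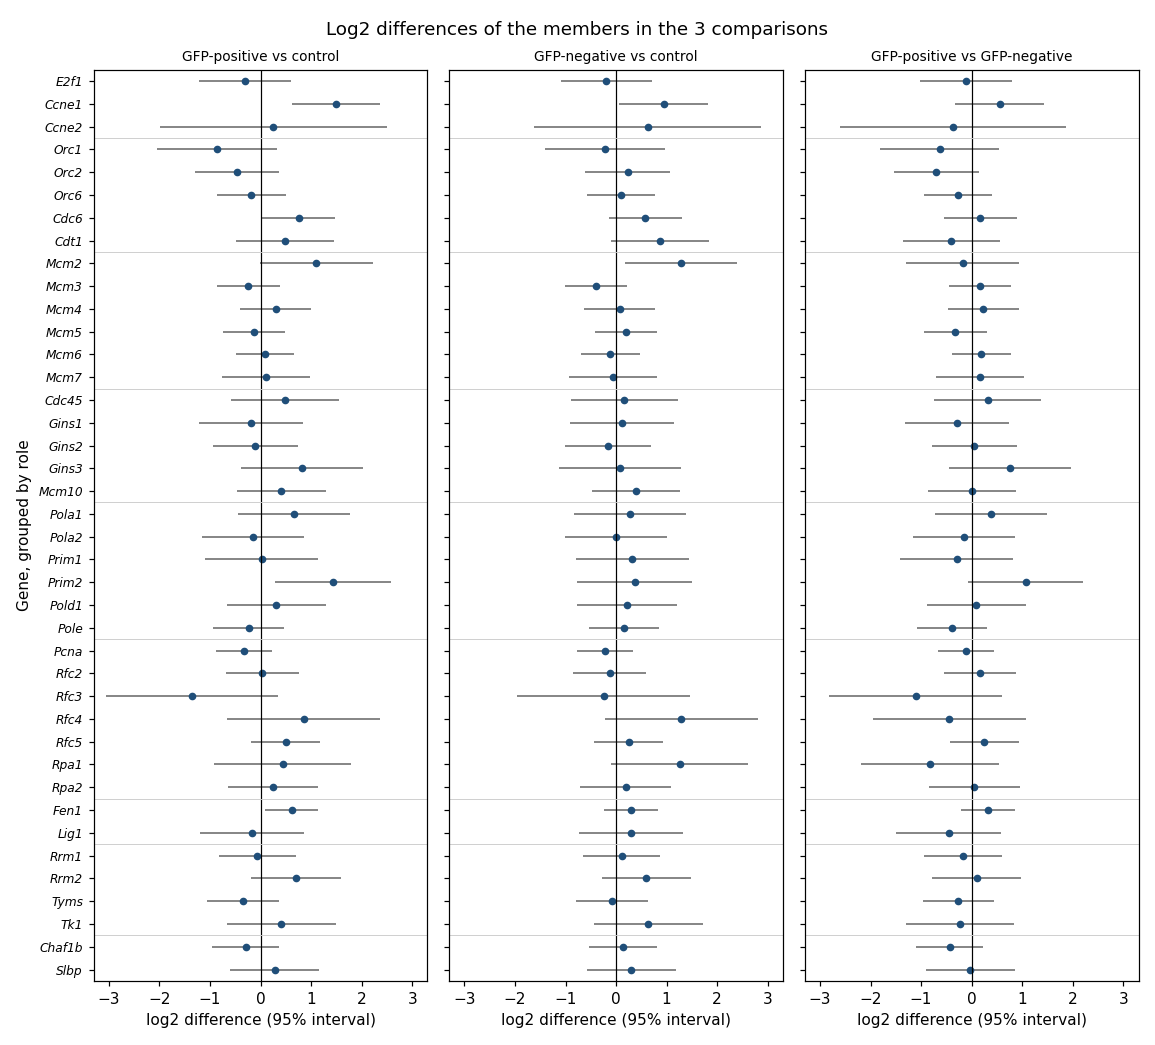
Log2 differences of the 40 members, grouped by role, in the 3 comparisons named above the panels. Points are limma estimates and lines their 95% intervals, unadjusted for the number of genes, and the intervals that do not include 0 belong to Ccne1, Prim2, Fen1 and Cdc6 in the left panel and to Mcm2 and Ccne1 in the middle one.

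Among the G1/S regulators, cyclin E1 (Ccne1), the cyclin that binds Cdk2 at the start of S phase, differed most. Ccne1 stood at 6.98, 8.22 and 7.05 on the GFP-positive arrays, at 6.35, 7.06 and 7.17 on the GFP-negative arrays and at 6.18, 5.79 and 5.79 on the control arrays. Every dnMPL array, of either fraction, was above every control array. The means (± SD, n = 3 each) were 7.41 ± 0.70 for GFP-positive, 6.86 ± 0.45 for GFP-negative and 5.92 ± 0.22 for control arrays. The difference was 1.49 ± 0.39 (SE) between GFP-positive and control cells, a fold of 2.82 (limma adjusted p = 0.519), and 0.94 ± 0.39 between GFP-negative and control cells (limma adjusted p = 0.876). It was 0.55 ± 0.39 between GFP-positive and GFP-negative cells (limma adjusted p = 1), with overlapping groups, and 0.15 without GFP-positive 2. Over 16 alternative settings the first difference ranged from 1.03 to 1.71, and the second from 0.79 to 1.20. The probe set used is of a type (_x_at) whose probes may also match other transcripts. The other Ccne1 probe set, of the plain type, gave 1.45 between GFP-positive and control cells and 1.08 between GFP-negative and control cells, and correlated with the first at 0.748 over the 9 arrays. Ccne1 held the smallest p of the members in the first comparison, where it ranked at place 90 of all genes.

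Cyclin E2 (Ccne2), the paralog of cyclin E1, varied too much between arrays to tell whether it followed Ccne1. Ccne2 stood at 5.24, 2.57 and 5.68 in GFP-positive cells, at 4.87, 4.54 and 5.19 in GFP-negative cells and at 6.12, 4.37 and 2.24 in controls. The GFP-positive and control groups overlapped over nearly their whole ranges, and each held 1 array far below the filter level of 4.03: GFP-positive 2 and control 3. The differences of Ccne2 were 0.26 between GFP-positive and control cells, 0.62 between GFP-negative and control cells and -0.37 between the fractions, and each of them changed sign under some alternatives. Their SE was 1.00. The 95% intervals of the first and second, -1.98 to 2.49 and -1.61 to 2.86, held the Ccne1 differences of the same comparisons. E2f1, the E2F factor that drives many of these genes, stood at 6.72, 7.01 and 7.07 in GFP-positive cells, at 6.53, 6.81 and 7.79 in GFP-negative cells and at 6.62, 7.30 and 7.78 in controls. By this brightest probe set its groups overlapped in all 3 comparisons. E2f1 differed by -0.30 between GFP-positive and control cells and by -0.19 between GFP-negative and control cells, or by -0.029 and 0.081 without control 3. Its second probe set, of nearly the same signal, gave -0.32 and -0.082 in these comparisons. In that one the GFP-positive values, at 7.04, 6.66 and 6.68, all lay below controls, at 7.10, 7.10 and 7.14. The third, of lower signal, gave -0.020 and -0.28.

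**Figure D3:**
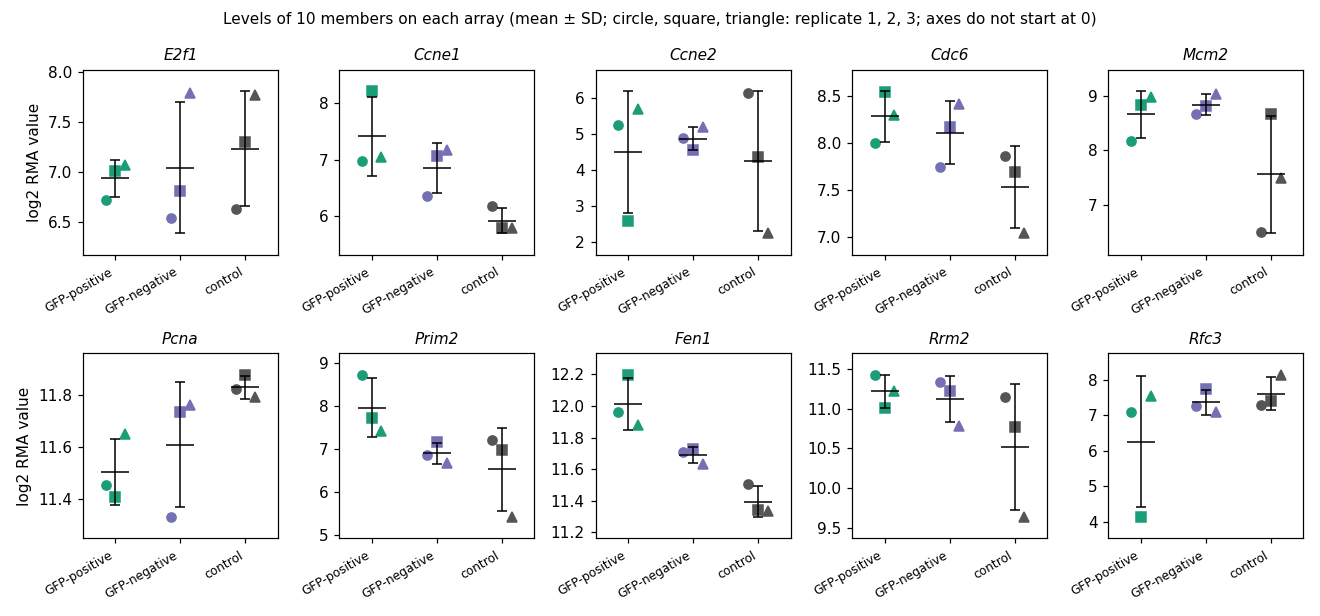
Log2 RMA values of 10 members on each array, for GFP-positive, GFP-negative and control cells from left to right. Circles, squares and triangles are replicates 1, 2 and 3, and lines give the mean ± SD; axes differ between genes and do not start at 0. In the probe sets shown, Ccne1 and Fen1 are higher, and Pcna lower, on all 6 dnMPL arrays than on all 3 control arrays.

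Of the 5 licensing factors, Cdc6, the loader that recruits the helicase to the origin complex, had groups that did not overlap between GFP-positive and control cells. Cdc6 stood at 8.00, 8.54 and 8.30 in GFP-positive cells, at 7.75, 8.16 and 8.41 in GFP-negative cells and at 7.86, 7.69 and 7.04 in controls. It was lowest on control 3, and GFP-negative 1 lay between controls. Cdc6 differed by 0.75 ± 0.32 between GFP-positive and control cells (limma adjusted p = 0.744), by 0.58 between GFP-negative and control cells and by 0.17 between the fractions. Without control 3 and GFP-positive 2 the first difference was 0.38, and without control 3 the second was 0.33. Cdt1, which acts with Cdc6, stood at 9.40, 9.37 and 10.22 in GFP-positive cells, at 10.03, 9.70 and 10.46 in GFP-negative cells and at 9.91, 9.27 and 8.38 in controls. Its GFP-negative values overlapped control 1 alone, and it differed by 0.88 ± 0.43 between GFP-negative and control cells (limma adjusted p = 0.885), or by 0.47 without control 3.

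The 3 subunits of the origin complex all had lower means in GFP-positive than in GFP-negative cells by their brightest probe sets, with overlapping groups. Orc2, a core subunit, stood at 7.53, 7.26 and 8.54 in GFP-positive cells and at 8.24, 8.24 and 8.95 in GFP-negative cells, while controls were at 8.14, 8.29 and 8.30. The GFP-positive arrays 1 and 2 lay below all other arrays, and GFP-positive 3 lay among the GFP-negative values. Orc2 differed by -0.70 ± 0.37 between GFP-positive and GFP-negative cells (limma adjusted p = 1), but by -0.44 without GFP-positive 2, by -1.08 without GFP-positive 3 and by -0.019 when all its probe sets were averaged. The brighter probe set of Orc1 differed by -0.86 between GFP-positive and control cells, or -0.28 without control 3, whereas its other probe set gave 0.35. The remaining subunit, Orc6, differed by -0.27 between the fractions and by less against control.

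In the MCM2-7 helicase, the ring that unwinds DNA at the fork, 1 subunit stood out from the other 5. Mcm2 stood at 8.17, 8.84 and 8.97 in GFP-positive cells, at 8.66, 8.82 and 9.04 in GFP-negative cells and at 6.51, 8.66 and 7.50 in controls. Controls 1 and 3 lay below all dnMPL arrays, whereas control 2 lay among them. The means of Mcm2 (± SD, n = 3 each) were 8.66 ± 0.43 for GFP-positive, 8.84 ± 0.19 for GFP-negative and 7.56 ± 1.08 for control arrays. It differed by 1.28 ± 0.49 between GFP-negative and control cells (limma adjusted p = 0.862), the smallest p of the members in that comparison, and by 0.76 without control 1 and 1.84 without control 2. Between GFP-positive and control cells it differed by 1.10 ± 0.49 (limma adjusted p = 0.768), 0.58 without control 1 and 1.66 without control 2. The second Mcm2 probe set gave smaller differences, 0.40 between GFP-negative and control cells and 0.37 between GFP-positive and control cells.

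The other 5 subunits lay between -0.24 and 0.30 in the comparison of GFP-positive with control cells and between -0.40 and 0.19 in that of GFP-negative with control cells. Mcm3 stood at 9.39, 9.88 and 10.10 in GFP-positive cells, at 9.42, 9.84 and 9.61 in GFP-negative cells and at 10.06, 10.03 and 9.98 in controls, and the GFP-negative and control values did not overlap. Its difference between GFP-negative and control cells was -0.40 ± 0.27. The other Mcm3 probe sets gave -0.58, -0.47, 0.13 and 0.073 in that comparison. Mcm4 stood at 10.17, 9.96 and 10.13 in GFP-positive cells and at 9.95, 9.82 and 9.79 in GFP-negative cells. These groups were separated by little more than the width of rounding, and controls, at 10.24, 9.96 and 9.15, spanned both. Between the fractions this probe set of Mcm4 gave 0.23 and the second one -0.27. Mcm6 stood at 11.98, 11.95 and 11.90 in GFP-positive cells and at 11.87, 11.85 and 11.87 in controls. Although these did not overlap, the difference was 0.083 ± 0.26, and Mcm6 in GFP-negative cells reached from 11.40 to 12.06. The second Mcm6 probe set gave -0.20 between GFP-positive and control cells.

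The 5 factors that activate the helicase, Cdc45, the GINS subunits Gins1, Gins2 and Gins3 and Mcm10, had no separate groups in any comparison. Their differences lay between -0.18 and 0.83 for GFP-positive against control cells and between -0.16 and 0.40 for GFP-negative against control cells. Gins3, the highest of them in the first, gave -0.071 in its second probe set. Mcm10, which differed by 0.41 and 0.40 from control in the GFP-positive and GFP-negative cells, gave 1.14 and 1.75 in its second probe set, whose value on control 3 was 3.78.

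Among polymerases and primase, Prim2, the large primase subunit, stood at 8.73, 7.73 and 7.42 in GFP-positive cells, at 6.87, 7.16 and 6.67 in GFP-negative cells and at 7.20, 6.97 and 5.41 in controls. All 3 GFP-positive values lay above the other 6 arrays, and control 3 was lowest. Prim2 differed by 1.44 ± 0.51 between GFP-positive and control cells (limma adjusted p = 0.702), by 0.37 ± 0.51 between GFP-negative and control cells and by 1.07 ± 0.51 between the fractions, the smallest p of the members there (limma adjusted p = 1). Without control 3 the first of these was 0.88 and the second -0.19, and without GFP-positive 1 the difference between the fractions was 0.68. The second probe set of Prim2 gave 0.94, 1.35 and -0.41 in that order. In it the GFP-positive arrays stood at 6.98, 4.57 and 6.77, and the GFP-negative arrays at 6.00, 6.62 and 6.93. The lower mean of GFP-positive cells there rested on GFP-positive 2, so this probe set does not settle the order of the fractions. Its differences from control rested in part on control 3, at 3.83, with controls 1 and 2 at 5.81 and 5.84. Prim1, the catalytic subunit and partner of Prim2, differed by 0.027, 0.32 and -0.29 in the same order of comparisons, and by -0.37 and -0.080 from control without control 3. By their brightest probe sets the polymerase subunits Pola1, Pola2, Pold1 and Pole lay between -0.23 and 0.66 for GFP-positive against control cells. For GFP-negative against control cells they lay between -0.0041 and 0.28, and groups overlapped in both. Pola1, the highest of them, differed by 0.089 and -0.29 without control 3. The second probe sets gave -0.78 and -0.054 for Pola2 and -0.33 and -0.72 for Pold1 in these comparisons.

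PCNA, the ring that tethers polymerases to DNA, was the member that lay lower than control on every dnMPL array. Pcna stood at 11.45, 11.41 and 11.65 in GFP-positive cells, at 11.33, 11.73 and 11.76 in GFP-negative cells and at 11.82, 11.88 and 11.79 in controls. The nearest values, GFP-negative 3 and control 3, were 11.76 and 11.79. Pcna differed by -0.33 ± 0.25 between GFP-positive and control cells (limma adjusted p = 0.91) and by -0.22 ± 0.25 between GFP-negative and control cells (limma adjusted p = 0.939). Over the alternatives these differences ranged from -0.40 to -0.28 and from -0.30 to -0.081, the last without GFP-negative 1, and Pcna has 1 probe set on this array.

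The clamp loader subunits, which open the PCNA ring, showed that single arrays set several differences. Rfc3 stood at 7.09, 4.13 and 7.54 in GFP-positive cells, at 7.26, 7.75 and 7.09 in GFP-negative cells and at 7.29, 7.39 and 8.14 in controls. GFP-positive 2 alone lay far below the rest. The difference of Rfc3 between GFP-positive and GFP-negative cells was -1.11 ± 0.76 (limma adjusted p = 1), and -0.047 without that array. The second Rfc3 probe set gave -0.67 between the fractions, and in it GFP-positive 2, at 6.11, lay between the other GFP-positive arrays. Against control the first probe set gave -1.35 and -0.24 in GFP-positive and GFP-negative cells, and the second 0.12 and 0.80. Rfc4 stood at 7.73, 6.95 and 8.46 in GFP-positive cells, at 9.13, 7.41 and 7.93 in GFP-negative cells and at 7.39, 7.75 and 5.44 in controls. Here control 3 was the low array and GFP-negative 1 the high one. Rfc4 differed by 1.29 ± 0.68 between GFP-negative and control cells (limma adjusted p = 0.897), and by 0.58 without control 3. Rfc2 and Rfc5 differed by at most 0.50 in size.

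RPA, the trimer that coats single-stranded DNA, was measured through Rpa1 and Rpa2. Rpa1 stood at 8.21, 9.17 and 10.23 in GFP-positive cells, at 9.95, 9.62 and 10.51 in GFP-negative cells and at 9.62, 9.01 and 7.66 in controls. Control 1 shared its value with GFP-negative 2 to the second decimal, and control 3 was the lowest array. Rpa1 differed by 1.26 ± 0.60 between GFP-negative and control cells (limma adjusted p = 0.884) and by 0.71 without control 3, while its second probe set gave 0.52. Rpa2 differed by 0.24 between GFP-positive and control cells and by 0.19 between GFP-negative and control cells, or by -0.074 and -0.13 without control 3. Its second probe set gave -0.0029 and 1.26 against control, and -1.26 between the fractions. In that probe set GFP-negative cells, at 7.29, 7.57 and 7.49, lay above controls, at 5.87, 6.84 and 5.87.

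In the maturation of Okazaki fragments, Fen1, the nuclease that trims the flap left by the primer, was higher than control on every dnMPL array by its brightest probe set. Fen1 stood at 11.96, 12.20 and 11.88 in GFP-positive cells, at 11.71, 11.73 and 11.63 in GFP-negative cells and at 11.51, 11.34 and 11.33 in controls. The 3 groups did not overlap, with GFP-positive cells highest and controls lowest. Fen1 differed by 0.62 ± 0.24 between GFP-positive and control cells (limma adjusted p = 0.72), by 0.30 ± 0.24 between GFP-negative and control cells and by 0.32 ± 0.24 between the fractions. Its second probe set, of lower signal, gave 0.56, 0.91 and -0.35, so the order of the fractions was not the same in both. In the second, GFP-negative 2 stood at 4.67, below controls 1 and 2 at 4.83 and 4.84, while all GFP-positive values lay above control. The brightest Fen1 probe set is of the _x_at type, whose probes may also match other transcripts. Lig1, the ligase that seals the fragments, differed by -0.17 and 0.29 from control in GFP-positive and GFP-negative cells, with overlapping groups.

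The genes of nucleotide supply had differences of both signs by their brightest probe sets. Rrm2, the small subunit of ribonucleotide reductase that is made in S phase, stood at 11.42, 11.00 and 11.22 in GFP-positive cells, at 11.34, 11.22 and 10.79 in GFP-negative cells and at 11.15, 10.76 and 9.63 in controls. Control 1 lay within both dnMPL groups and control 3 below every other array. Rrm2 differed by 0.70 ± 0.39 between GFP-positive and control cells and by 0.60 ± 0.39 between GFP-negative and control cells, and by 0.26 and 0.16 without control 3. That probe set is of the _x_at type. The other Rrm2 probe sets, of the plain type, gave 1.19 and 1.20, and 0.98 and 1.29, in the same order. In both, every GFP-negative array lay above every control, GFP-positive 2 lay among controls, and control 3 was lowest. Tyms, thymidylate synthase, stood at 5.11, 4.95 and 4.96 in GFP-positive cells, at 5.04, 5.65 and 5.12 in GFP-negative cells and at 4.80, 5.55 and 5.71 in controls. All groups overlapped, and Tyms differed by -0.34 and -0.079 from control in GFP-positive and GFP-negative cells. Its probe sets went opposite ways: the next brightest gave -1.87 and -0.65, and the least bright above the filter 1.16 and 1.64, so no direction is given for Tyms. Rrm1 and Tk1, the large reductase subunit and thymidine kinase, differed by -0.060 and 0.41 between GFP-positive and control cells and by 0.11 and 0.64 between GFP-negative and control cells. Without control 3 Tk1 differed by -0.17 and 0.060 in these comparisons. The second Rrm1 probe set, of nearly the same mean signal, gave 0.36 and 0.74 in them. It stood at 7.66 on control 3, and at 9.73 and 9.98 on controls 1 and 2.

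The members that couple replication to chromatin were the histone chaperone subunit Chaf1b and Slbp, which binds histone mRNA. Chaf1b stood at 7.62, 7.97 and 7.63 in GFP-positive cells, at 7.94, 7.92 and 8.66 in GFP-negative cells and at 7.99, 8.28 and 7.84 in controls. The GFP-positive and GFP-negative values overlapped through GFP-positive 2, and Chaf1b differed by -0.44 ± 0.30 between them (limma adjusted p = 1), and by -0.19 without GFP-negative 3. Slbp differed by 0.28, 0.30 and -0.023 in the comparisons of GFP-positive with control, GFP-negative with control and GFP-positive with GFP-negative cells, and by -0.12 and -0.094 from control without control 3. Its second probe set, of lower signal, gave 0.13, 1.08 and -0.95 in the order of these comparisons.

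**Figure D4:**
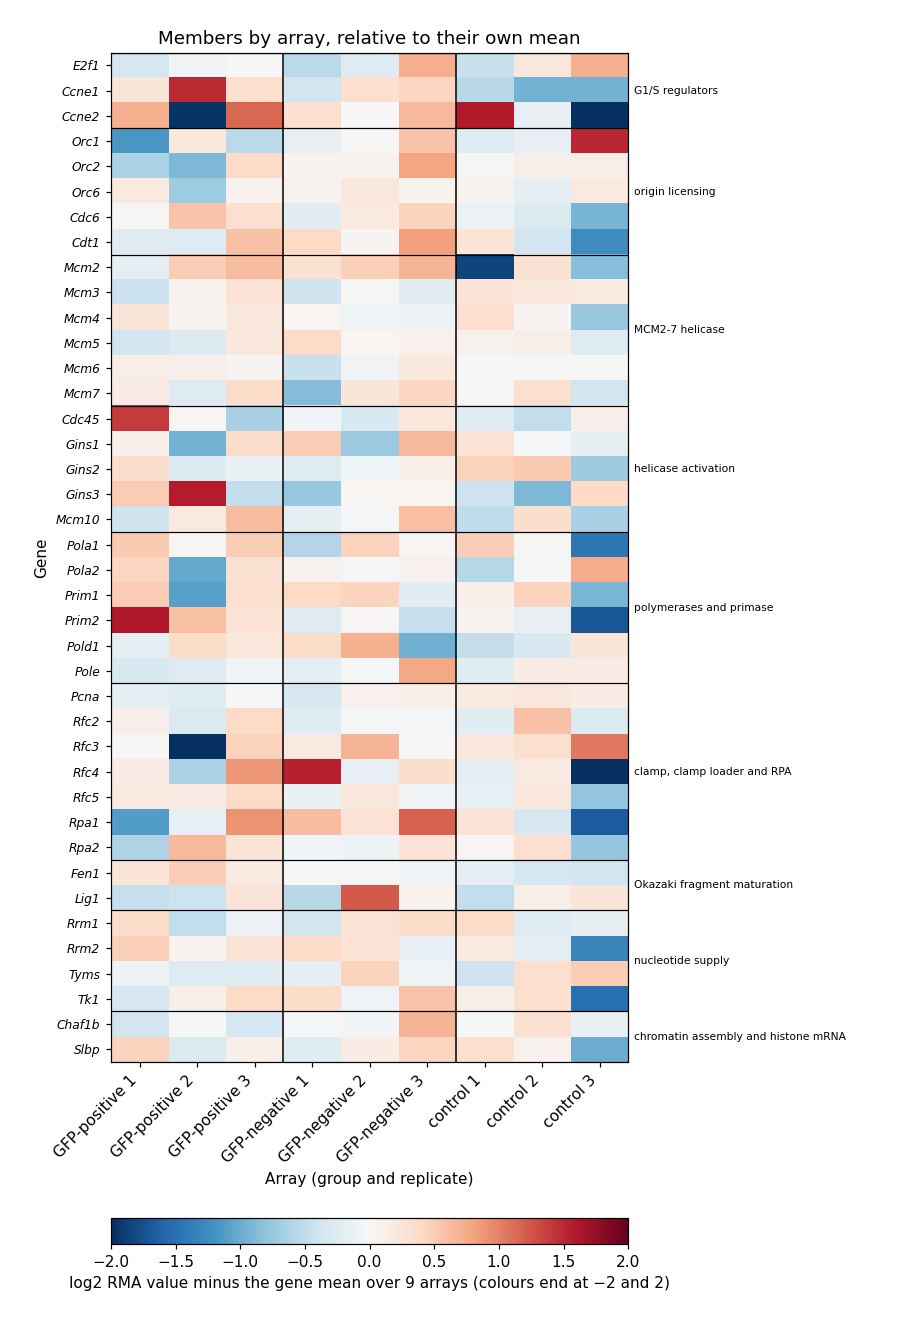
The 40 members by role (rows) on the 9 arrays (columns), as the log2 RMA value minus the gene's mean over the arrays; red is above and blue below that mean, and colours end at -2 and 2. Blue cells gather on control 3, which holds the lowest value of 17 members, while the GFP-positive, GFP-negative and control blocks are mixed for most genes.

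The levels of the members were weakly related across arrays. The median Pearson correlation over all pairs of members was 0.13 over the 9 arrays, with 60% of pairs above 0, against 0.0031 and 50.3% over all genes tested. Cdt1 and Slbp followed the mean of the other members most closely, at 0.839 and 0.829, whereas Orc1 ran against it at -0.619. These correlations share the 9 arrays and the quality differences between them, and are given as a description. The genes outside the list whose levels were most like the mean of the members were Atp5b (0.972), Cox7a2 (0.970), Psmd1 (0.963), Acsl4 (0.962) and B3galnt2 (0.961). Each of these 5 had its lowest value on control 3.

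Several probe sets of a gene gave a further check. Of the 40 members 32 had more than 1 probe set, and 30 had a second one above the filter. The sign of the difference was the same in both for 18 of 30 members between GFP-positive and control cells, for 22 between GFP-negative and control cells and for 18 between the fractions. Probe sets can target different parts of a transcript, and which of them reports the gene better was not tested.

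Other replication and G1/S genes were read from a separate list of 46, of which 45 were measured. Between GFP-positive and control cells 30 were higher and 15 lower (median 0.13), between GFP-negative and control cells 33 and 12 (median 0.29), and between the fractions 18 and 27 (median -0.088). In limma 0 of them passed the adjusted threshold in any comparison, and 1, 2 and 0 had an unadjusted p under 0.05. Dna2, a nuclease and helicase of Okazaki fragments, differed by 1.27 ± 0.56 between GFP-positive and control cells and by 1.19 between GFP-negative and control cells. It stood at 4.86 on control 3, and at 6.69 and 7.19 on controls 1 and 2. Asf1b, a histone chaperone, and Dbf4, the activator of the kinase Cdc7, differed by 1.00 ± 0.50 and 0.63 ± 0.32 between GFP-positive and control cells, and Dbf4 by 0.73 ± 0.32 between GFP-negative and control cells. Mcm9, a helicase of repair, differed by 1.32 ± 0.58 between GFP-negative and control cells. Between GFP-positive and GFP-negative cells the smallest p fell on Mcm9 (-1.30 ± 0.58), Tfdp2, a partner of E2F factors (-1.23 ± 0.71), and Pold4, a small polymerase subunit (-1.07 ± 0.72). Mcm9 and Tfdp2 were at their lowest on GFP-positive 2.

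Genes of G2/M and mitosis, the phases after replication, were set beside the members. Of 19 measured, 16 were higher in GFP-positive than in control cells, with a median of 0.54, and 16 in GFP-negative cells, with a median of 0.55. Between the fractions 11 were higher in GFP-positive cells, with a median of 0.075. The mean level of this list was 8.16 to 8.47 in GFP-positive cells and 8.29 to 8.39 in GFP-negative cells. Controls 1 and 2 both stood at 8.16 and control 3 at 7.24, so the differences from control rest in part on that array. Ccna2, cyclin A of S and G2 phase, stood at 9.94, 10.25 and 9.89 in GFP-positive cells, at 10.21, 9.61 and 9.74 in GFP-negative cells and at 9.40, 9.29 and 8.70 in controls, with every dnMPL array above every control. It differed by 0.90 ± 0.30 between GFP-positive and control cells (limma adjusted p = 0.664). Mki67, a marker of cycling cells, stood at 12.49, 12.37 and 12.04 in GFP-positive cells, at 11.96, 12.26 and 12.15 in GFP-negative cells and at 12.33, 12.21 and 12.41 in controls, and its groups overlapped throughout. It differed by -0.013 between GFP-positive and control cells and by -0.19 between GFP-negative and control cells.

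Lists of marker genes of other cell types were read as means, and no gene of these lists passed the adjusted threshold. The mean level of 13 of 14 granulocyte genes was 9.82 to 11.06 in GFP-positive cells, 8.91 to 10.55 in GFP-negative cells and 6.46 to 9.04 in controls, and all 13 were higher in both fractions than in controls. Among the controls, control 3 had the granulocyte mean of 9.04, and controls 1 and 2 stood at 7.44 and 6.46. The mean of 12 of 14 erythroid genes was 6.50 to 6.79 in GFP-positive cells, 6.13 to 6.51 in GFP-negative cells and 5.21 to 5.33 in controls. Of the 11 tested, 9 were higher and 2 lower in GFP-positive than in control cells, with differences from -0.34 to 4.36. In GFP-negative cells 7 were higher and 4 lower than in controls, with differences from -0.68 to 3.33. The 9 of 10 B cell genes stood at 6.04 to 6.52 in GFP-positive cells, 4.88 to 5.83 in GFP-negative cells and 3.89 to 5.77 in controls. Of the 8 B cell genes tested, 7 were higher and 1 lower than control in GFP-positive cells, and 6 and 2 in GFP-negative cells. The 8 endothelial and stromal genes stood at 4.58 to 5.33 in GFP-positive cells, 4.50 to 5.04 in GFP-negative cells and 4.19 to 4.77 in controls. Of the 5 of these tested, 4 were higher and 1 lower than control in each fraction. RMA values have no true zero, so no marker is listed at 0. Whether the samples held such cells, and what part they had in the differences of the members, was not tested. In such bulk samples, fewer cells of a type and less RNA per cell cannot be told apart.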

How the data were processed

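Biotin-labelled complementary DNA from 9 LSK cell samples was hybridised to mouse Affymetrix arrays, 1 per sample. The values used are the log2 RMA values deposited by the authors (RMA is named without a version per the submitters' processing notes). RMA subtracts background, brings the arrays to one distribution by quantile normalization and then combines the probes of a probe set, and it can give several arrays the same value. Scanner files were not analysed here.

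Of 45101 probe sets 64 were controls, 34945 had 1 gene in the platform annotation, 932 several and 9160 none. Each gene was read from its brightest single-gene probe set. A filter at the 40th percentile of all probe set means (4.03) left 12400 of 18193 genes. The 3 groups were fitted together over the 9 arrays (limma 3.58.1 in R 4.3.3, lmFit then eBayes), with Benjamini-Hochberg adjustment over all genes tested and a threshold of 0.05. With 3 arrays a side, the smallest p of an exact permutation test is 0.1, so none was used. The fit was tested on simulated data. Whether same-numbered samples are related is not stated. Their deviations over all genes correlated at -0.29 to 0.10 and not above 0.1 in every pair, so the samples were not treated as paired.

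The members, the lists and the alternatives were chosen with earlier results of these data known. Values on every array are given for Mcm2, Pcna, Ccne1, Ccne2, Cdc6, E2f1, Rrm2 and Tyms and for the 5 members with the smallest p in each comparison, and for Mki67 and Ccna2. Differences are given for the 3 genes of the list of other replication genes with the smallest p in each comparison. Mcm3, Mcm4 and Mcm6 were added because their groups did not overlap, after their values were seen. Promoters are from RefSeq, build GRCm38.p6, and the coordinates of probe sets were not used here. The 16 alternatives per comparison changed the normalization, the filter, the probe set used, the prior on the variance, the weights of arrays, the arrays fitted and the use of the replicate number as a block.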

Additional observations from a re-analysis of the deposited data

How the results depend on the processing

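In all 16 alternatives of each comparison, 0 genes and 0 members were called in limma. The smallest adjusted p of any gene over these alternatives was 0.0522 between GFP-positive and control cells, 0.0948 between GFP-negative and control cells and 0.124 between the fractions, and the smallest of any member 0.266, 0.331 and 0.59. Genes with an unadjusted p under 0.05 numbered 612 to 1368, 511 to 1133 and 203 to 984. The median difference of the members ranged from -0.076 to 0.32, from 0.076 to 0.30 and from -0.18 to 0.036, so its sign held in every alternative for GFP-negative against control cells alone. Both extremes of the first came from leaving out a control array (control 3 and control 2), and the cause was not tested. Without control 3 and GFP-positive 2 together the medians were 0.089, 0.076 and 0.036. Groups did not overlap for 10% to 30% of members between GFP-positive and control cells, 7.5% to 25% between GFP-negative and control cells and 5% to 22.5% between the fractions. The share over all genes tested was 7.17% to 32.1%, 10.3% to 26.1% and 5.84% to 24.6%, and both shares were highest where arrays were left out, since fewer arrays separate more easily. With the replicate block, the medians stayed at 0.17, 0.19 and -0.11, and 3, 2 and 1 members had an unadjusted p under 0.05. The labels do not pair the samples by number. Single values that moved by more than the spread between replicates numbered 9, 5 and 8, and 629, 633 and 630 did not. With 3 arrays a group and 2 of 9 with wide Gapdh gaps, differences of the size of a member's interval cannot be resolved.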
